A study of Mus musculus with 22 samples.

Results

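Small heat shock proteins and the inducible Hsp70 proteins were examined in ischemic mouse muscle through 9 genes, Hspb1, Hspb2, Hspb3, Hspb6, Hspb7, Hspb8, Cryab, Hspa1a and Hspa1b. Members were all probes that the array annotation assigns to one of these symbols, which gave 14 of the 38563 probes and 9 of the 18524 named genes. Gastrocnemius muscles came from male C57BL/6N mice aged 8 to 12 weeks, described as non-diabetic in the sample titles, and every mouse in both groups had undergone femoral artery removal. ANTI-210 mice (n = 11) received an intraperitoneal injection of an LNA oligonucleotide against miR-210, at 12 mg/kg, on day 5 of ischemia. SCR mice (n = 11) received a scrambled LNA oligonucleotide in the same way. Muscles were taken on day 7, 200 ng of total RNA of each was labelled, and each mouse was read on its own Illumina MouseWG-6 v2 array. The oligonucleotide was given systemically, so no cell type was singled out, and a whole muscle holds fibres, blood vessels, connective tissue and invading leukocytes. No muscle without ischemia was analysed here, so the values show differences between treatments and between mice, not the response to ischemia itself.

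Heat shock proteins are chaperones, which keep other proteins from misfolding or clumping. The small ones (the Hspb genes and Cryab) hold unfolded clients without using ATP. The Hsp70 proteins bind and release clients in an ATP-driven cycle that refolds them, with J-domain proteins feeding in clients and BAG proteins and Hsp110 acting as exchange factors. Muscle fibres are among the richest sources of small heat shock proteins, where these protect actin, desmin, titin and filamin under load. Hspa1a and Hspa1b are the classic stress-inducible Hsp70 genes, switched on by heat shock factors that bind repeated GAA blocks in their promoters.

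Sequences are shown for the microRNA that the oligonucleotide is directed against and for a short motif found in the promoter windows of both Hsp70 genes and of some small heat shock genes. The mature mouse miR-210 (chr7:141221407-141221428, minus strand, GRCm38.p6, from RefSeq) is given with its seed, bases 2 to 8, in capitals.
mmu-miR-210-3p: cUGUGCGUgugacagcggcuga
RefSeq promoter windows, from 250 bases before to 50 bases after the annotated start (GRCm38.p6), were matched for 7 of the 9 members, with 8 windows because Hspb6 has 2 starts. Cryab and Hspb2 were not among them. A minimal heat shock element was searched as GAANNTTC or TTCNNGAA, each of which reads the same on both strands. The matches are in capitals below with their neighbouring bases, and the position is that of the first capital relative to the start site.
Hspa1a at -104: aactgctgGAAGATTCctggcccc
Hspa1b at -104: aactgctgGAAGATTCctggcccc
Hspb1 at -117: caacaagaGAAGTTTCcagatggg
Hspb1 at -97: tgggggcaGAACCTTCctggcccc
Hspb3 at -224: cccgaatgGAATTTTCaggcagag
Hspb6, second start, at -120: taattattGAAGTTTCtaaataag
Hspb8 at 3: agccaggaGAAGTTTCtaggctcg
One or more matches stood in 6 of the 8 windows, all of the form GAANNTTC, and neither the Hspb7 window nor the first Hspb6 window held one. The same search matched 15.1% of all 32851 promoters. The windows of Hspa1a (chr17:34972107-34972406) and Hspa1b (chr17:34959189-34959488), both on the minus strand, were identical at 296 of 300 bases (98.7%). They differed at C44T, T47C, T249G and C276T, with the Hspa1a base first and positions counted from the 5′ end of the window. A match describes letters only and was not tested as a binding site.

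The muscle label was borne out by its markers, since the means of all 19 measured mature fibre genes lay at 8.76 or higher on the log2 scale, whose top value is 15.4. Across the 22 arrays, correlations of all probes ranged between 0.947 and 0.997. Mice differed most along 1 axis, principal component 1, which covered 63.6% of the variance. Its highest scores were 85.3 in SCR 6, 80.2 in ANTI-210 11 and 76.4 in SCR 7. The lowest score was -53.2 in SCR 11. A second principal component (7.31% of the variance) set replicate numbers 1 to 3 of both groups apart from numbers 4 to 11. No batch is named in the sources used here, so the members, the marker scores and the list genes past the threshold are also given for each set, with 3 mice against 3 in numbers 1 to 3 and 8 against 8 in numbers 4 to 11. The number of arrays limits the precision, and the median standard error over all probes was 0.07, against 0.03 to 0.28 for the members.

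By its brightest probe, no member gene passed the test between ANTI-210 and SCR muscles (0 of 9, against 1.45% of all genes higher and 2.01% lower). Each difference below is the ANTI-210 mean minus the SCR mean in log2 units, from a limma fit over all probes, and the study's own threshold of an unadjusted p under 0.05 was used for calls. Of the 14 member probes, 1 passed (7.14%), against 3.41% of all probes (1316 of 38563, with 1.47% higher and 1.94% lower), and it was a dim further probe of Hspa1a. After Benjamini-Hochberg adjustment over all probes no member passed, against 0.00519% of all probes. Over the 14 probes 9 differences were negative and 5 positive, with a median of -0.04, against -0.00364 for all probes. Of the 14 probes 5 had a mean under 6, which is called near the floor here. Brightness depends on the probe, so levels are compared between mice and never between genes.

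Cryab, or αB-crystallin, is the most studied small heat shock protein of striated muscle and a chaperone of desmin. In ANTI-210 muscles its lowest, median and highest log2 intensities were 11.74, 13.41 and 13.78. In SCR muscles they were 12.05, 13.32 and 13.89. The groups overlapped almost completely, and the low end was reached in both by single muscles, ANTI-210 11 and SCR 6. The difference was -0.09 (standard error 0.26, 95% interval -0.63 to 0.45, unadjusted p = 0.740 and adjusted p = 1.0 with limma).

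Hspb2, also called MKBP, binds the myotonic dystrophy kinase and is a neighbour of Cryab on chromosome 9, where the loci overlap in the RefSeq annotation of GRCm38.p6. Its values were 9.39, 9.90 and 10.38 (lowest, median, highest) in ANTI-210 muscles and 9.27, 10.19 and 10.40 in SCR muscles. Both groups thus covered the same range, although 9 of 11 ANTI-210 muscles lay below the SCR median. The difference was -0.15 (standard error 0.16, 95% interval -0.47 to 0.17, unadjusted p = 0.346, adjusted p = 1.0 with limma).

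Hspb7, or cvHsp, is a heart and skeletal muscle form that binds filamin C. Its lowest, median and highest values were 11.17, 12.22 and 12.97 in ANTI-210 muscles, against 11.44, 12.63 and 13.05 in SCR muscles. Here too 9 of 11 ANTI-210 muscles were below the SCR median, and 1 lay below every SCR muscle. The difference of -0.25 was the furthest from 0 among the members, but its 95% interval ran between -0.68 and 0.18 (standard error 0.21, unadjusted p = 0.238, adjusted p = 1.0 with limma).

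Hspb6, or Hsp20, is an abundant muscle form that is phosphorylated by protein kinase A. It read 14.78, 15.27 and 15.33 in ANTI-210 muscles and 14.74, 15.27 and 15.33 in SCR muscles. The group medians were the same, and the muscles that stood apart were ANTI-210 11 and SCR 6. Only 4 probes on the array had a higher mean, so this probe sat close to the top of the scale of 15.4, where further increases can hardly be seen. Its difference was 0.01 (95% interval -0.13 to 0.15, unadjusted p = 0.874, adjusted p = 1.0 with limma).

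Hspb1, or Hsp25 in mice, stabilises actin filaments and is found in many cell types besides muscle. Its brighter probe read 11.99, 12.24 and 12.66 in ANTI-210 muscles and 11.80, 12.40 and 12.89 in SCR muscles. All ANTI-210 values fell within the SCR range. The difference was -0.09 (standard error 0.13, 95% interval -0.36 to 0.17, unadjusted p = 0.479, adjusted p = 1.0 with limma). The other Hspb1 probe stayed near the floor at a mean of 4.54 and differed by 0.01.

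Hspb8, or Hsp22, pairs with the co-chaperone Bag3 to hand damaged filamin to autophagy. By its brighter probe it was the steadiest member, at 14.21, 14.35 and 14.51 in ANTI-210 muscles and 14.12, 14.38 and 14.56 in SCR muscles. Every ANTI-210 value lay within the SCR range. Its differences were -0.02 (95% interval -0.12 to 0.09, unadjusted p = 0.719) and 0.02 for the second probe (95% interval -0.16 to 0.20, unadjusted p = 0.829), both with an adjusted p of 1.0 in limma.

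Hspb3 is the muscle partner with which Hspb2 forms a fixed complex. It read 11.25, 11.40 and 11.69 in ANTI-210 muscles, against 11.09, 11.42 and 11.76 in SCR muscles. No ANTI-210 muscle left the SCR range, and the difference was -0.01 (95% interval -0.18 to 0.16, unadjusted p = 0.902, adjusted p = 1.0 with limma).

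Hspa1a varied the most. Its brightest probe read 7.04, 7.82 and 9.55 in ANTI-210 muscles and 7.13, 8.23 and 8.94 in SCR muscles. ANTI-210 muscles were spread further on both sides, with 2 below the lowest and 2 above the highest SCR muscle. The difference was -0.16 (standard error 0.28, 95% interval -0.75 to 0.43, unadjusted p = 0.571, adjusted p = 1.0 with limma). The second Hspa1a probe, near the floor at a mean of 4.84, differed by -0.06 (95% interval -0.16 to 0.05, unadjusted p = 0.300).

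The third Hspa1a probe was the single member probe past the unadjusted threshold. It read 4.48, 4.64 and 4.76 in ANTI-210 muscles and 4.67, 4.74 and 5.04 in SCR muscles, so that 6 of 11 ANTI-210 muscles lay below the lowest SCR value. The difference was -0.16 (standard error 0.05, 95% interval -0.26 to -0.07, unadjusted p = 0.00189, adjusted p = 1.0 with limma). Within numbers 4 to 11 it was -0.18 (8 mice against 8, exact permutation p = 0.00637, two-sided) and within numbers 1 to 3 it was -0.12 (exact permutation p = 0.2). With a mean of 4.70 the probe lay near the floor, where arrays respond weakly to RNA amount, and it followed the brightest Hspa1a probe across the mice with an r of only 0.24 (permutation p = 0.269, adjusted p = 0.539 over 6 probe pairs, with rho = 0.20, adjusted p = 0.784). The second and brightest Hspa1a probes followed each other at r = 0.61 (permutation p = 0.00647, adjusted p = 0.0194, with rho = 0.68, adjusted p = 0.00468), or 0.57 without the 2 mice farthest from the median. Within the sets of replicate numbers that r was -0.59 in numbers 1 to 3 and 0.56 in numbers 4 to 11.

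Hspa1b is the near-identical neighbour of Hspa1a. Both of its probes lay near the floor, with means of 5.44 and 4.74. The brighter one read 4.88, 5.52 and 5.87 in ANTI-210 muscles and 4.95, 5.36 and 6.23 in SCR muscles, with no separation. The differences were 0.04 (95% interval -0.27 to 0.35, unadjusted p = 0.788) and 0.06 (95% interval -0.14 to 0.26, unadjusted p = 0.524). Whether a probe of one of these genes also binds RNA of the other was not tested.

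**Figure D1:**
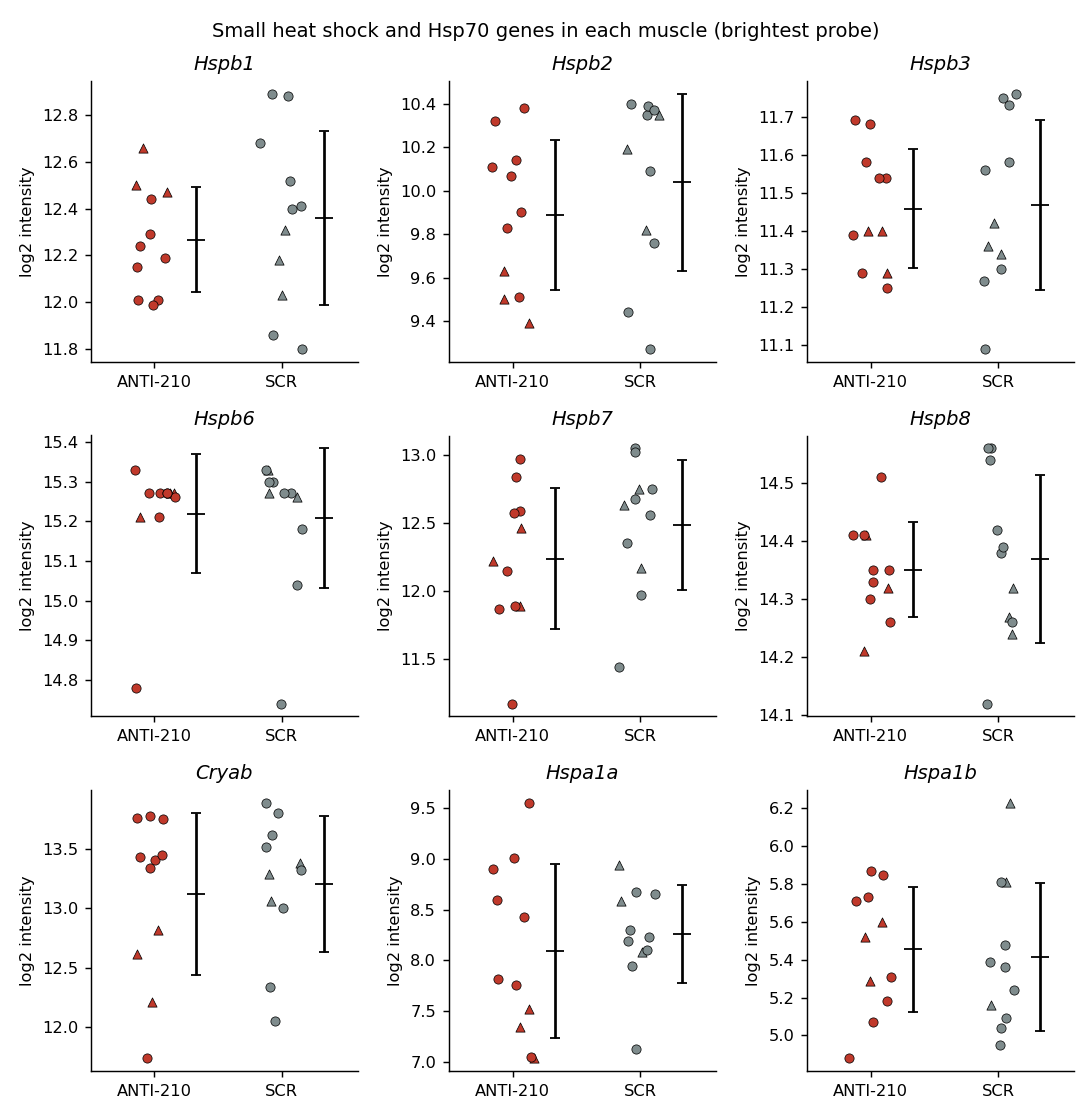
Log2 intensity of the brightest probe of each member in every muscle, ANTI-210 in red and SCR in grey, with triangles for replicate numbers 1 to 3 and circles for numbers 4 to 11. Black marks and bars are the group mean and SD (n = 11 each). The groups overlap in all 9 panels, and Hspb6 has its values packed near 15.3 except for a few low muscles.

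The picture differed between the sets of replicate numbers. Within numbers 1 to 3, the ANTI-210 and SCR muscles did not overlap for 6 of the 14 member probes, but this held for 33.1% of all probes in these 6 mice. Hspa1a was the widest of them, with 7.35, 7.52 and 7.04 in ANTI-210 muscles 1, 2 and 3, against 8.08, 8.94 and 8.58 in SCR muscles 1, 2 and 3, a difference of -1.23. Cryab read 12.82, 12.62 and 12.21 in those ANTI-210 muscles, against 13.29, 13.38 and 13.06 in the SCR muscles, a difference of -0.69. Hspb2 differed by -0.61 and the dim second Hspa1a probe by -0.16, whereas Hspb1 (0.37) and the second Hspb8 probe (0.24) were the other way. Each gave an exact permutation p of 0.1, the smallest that 3 mice against 3 allow.

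Within numbers 4 to 11 these differences were smaller or of the other sign. Hspa1a differed by 0.24 (exact permutation p = 0.491), Cryab by 0.14 (exact permutation p = 0.714), Hspb2 by 0.02 (exact permutation p = 0.892) and Hspb1 by -0.27 (exact permutation p = 0.115). All 4 overlapped between the groups there. Hspb7 kept its sign, at -0.33 in numbers 1 to 3 (exact permutation p = 0.3) and -0.22 in numbers 4 to 11 (exact permutation p = 0.453). The brightest probes of Hspb3, Hspb6 and Hspb8 differed by between -0.04 and 0.04 in either set, and Hspa1b by -0.26 in numbers 1 to 3 and 0.155 in numbers 4 to 11. The difference between the sets was itself tested in limma, where Hspa1a (-1.47, standard error 0.56, unadjusted p = 0.0167, adjusted p = 0.442) and Hspb1 (0.64, standard error 0.26, unadjusted p = 0.0251, adjusted p = 0.447) passed unadjusted. That is 2 of 14 probes, against 11.0% of all probes, and none passed after adjustment. In numbers 1 to 3 the macrophage marker score described below was 0.37 to 1.23 in the ANTI-210 muscles and -0.50 to -0.27 in the SCR muscles, and its part in these differences was not tested.

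**Figure D2:**
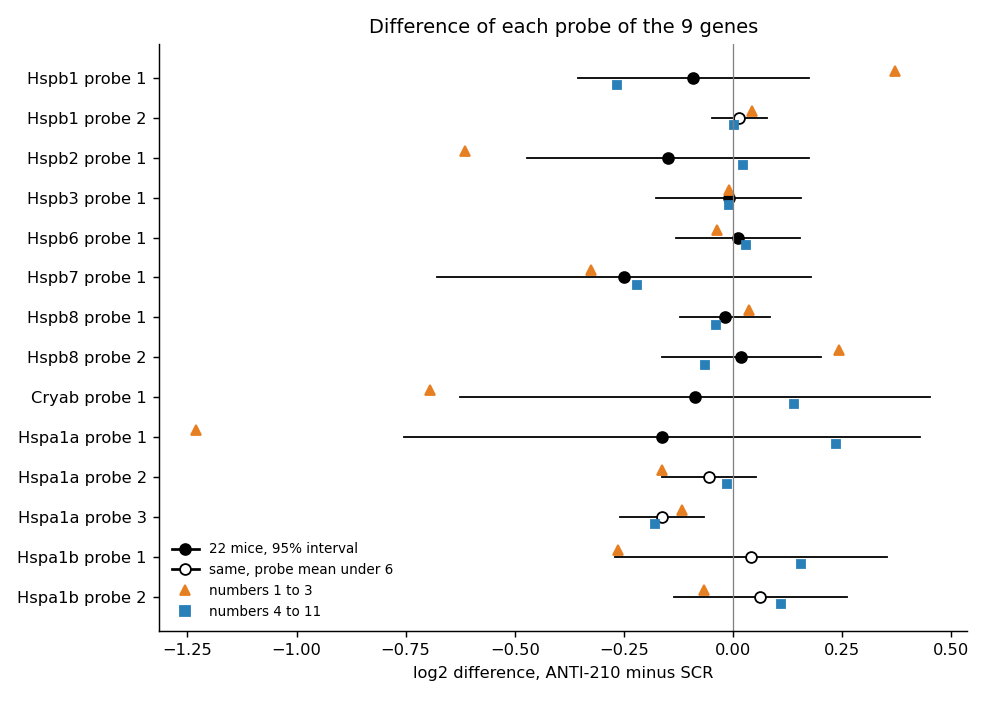
Log2 difference of each member probe, ANTI-210 minus SCR. Circles with bars are the difference and 95% interval over 22 mice (open circles for probes with a mean under 6), orange triangles the difference within numbers 1 to 3 and blue squares that within numbers 4 to 11. Of the 14 intervals only that of the third Hspa1a probe leaves out 0, and the brightest Hspa1a probe gives -1.23 in one set and 0.24 in the other.

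Individual mice differed widely in some members. A range over single muscles takes in treatment and replicate set as well, and is not comparable with a difference of group means. Over all 22 muscles, the highest value was 5.70-fold the lowest for Hspa1a, 4.44-fold for Cryab, 3.68-fold for Hspb7, 2.19-fold for Hspb2 and 2.13-fold for Hspb1. The standard deviations of Hspa1a (0.68) and Cryab (0.62) stood at percentiles 92.2 and 89.6 of the 8828 genes with a mean of 6 or more, whose median was 0.28. Hspb7 (0.50) stood at percentile 82.1 and Hspb2 (0.38) at 68.5. Hspb8, with a standard deviation of 0.12 by its brighter probe, stood at percentile 4.79, and Hspb3 at 24.7. The second Hspb8 probe, with a mean of 12.63, had a standard deviation of 0.21, above that of Hspb3 (0.19). By their brightest probes, the members thus ranged from the more variable to the steadiest genes of the ischemic muscle. For Hspb8 this depended on the probe. For Hspb6, with a standard deviation of 0.16, the nearness to the ceiling also bounds the spread.

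Several members varied together across mice. Values were centred on each treatment group's mean, and 36 pairs were tested by permutation within groups. Of these, 12 passed after adjustment by Pearson's r, 10 positive and 2 negative, and 8 passed by Spearman's rho. The share among pairs of other genes was not computed. With 63.6% of the variance of all probes on 1 principal component, the count does not set the members apart. The muscles highest on that component, SCR 6, ANTI-210 11 and SCR 7, were low in Cryab (12.05, 11.74 and 12.34). They were low in Hspb2 too (9.27, 9.51 and 9.44). How far the pairs restate this axis was not tested. All 12 had the same sign within ANTI-210 and within SCR muscles and within numbers 4 to 11, and 11 within the 6 mice of numbers 1 to 3. Without the 2 mice farthest from the median of one gene, 9 of the 12 kept an unadjusted p under 0.05. No member fell into separate clusters by the largest gap in its values, which was at most 23.7% of the range. In numbers 4 to 11 alone 7 of the 12 pairs passed, and those lost were Hspb1 with Cryab and with Hspb2, and Hspa1a with Cryab, Hspb2 and Hspb7 (adjusted p of 0.0571 to 0.148).

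Cryab and Hspb2, the neighbours on chromosome 9, had the closest relation (r = 0.88, permutation p = 1e-05, which is the smallest that 100000 resamples can give, adjusted p = 0.00036). Spearman's rho was 0.82 (permutation p = 2e-05, adjusted p = 0.00072), and r was 0.82 without SCR 6 and SCR 7, the mice farthest from the median. Within numbers 1 to 3 it was 0.71 and within numbers 4 to 11 it was 0.87. Muscles low in one were low in the other, with 11.74 for Cryab and 9.51 for Hspb2 in ANTI-210 11 and 12.05 and 9.27 in SCR 6.

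Hspb7 followed Cryab nearly as closely (r = 0.81, permutation p = 3e-05, adjusted p = 0.00054, with rho = 0.69, permutation p = 0.00082, adjusted p = 0.0148). The value was 0.65 without ANTI-210 11 and SCR 6, 0.94 within numbers 1 to 3 and 0.87 within numbers 4 to 11. Hspb7 and Hspb2 gave r = 0.70 (permutation p = 0.00044, adjusted p = 0.00324, with rho = 0.57, permutation p = 0.00801, adjusted p = 0.0402), with 0.53 without SCR 6 and SCR 7, 0.86 within numbers 1 to 3 and 0.76 within numbers 4 to 11. Cryab, Hspb2 and Hspb7 thus tended to rise and fall together in either set, but not in every muscle. ANTI-210 10 held 10.32 of Hspb2, above the group median of 9.90, but 11.87 of Hspb7, below the group median of 12.22. The r of Hspb7 with Hspb2 was 0.51 within ANTI-210 and 0.88 within SCR muscles.

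Hspb6 was tied to these members mainly through a few muscles. With Cryab r was 0.76 (permutation p = 0.00013, adjusted p = 0.00156), but rho was 0.44 (permutation p = 0.0262, adjusted p = 0.0859). Without ANTI-210 11 and SCR 6 the r was 0.52, and it was 0.01 within numbers 1 to 3 and 0.91 within numbers 4 to 11. With Hspb7 it dropped to 0.34 without the same mice (permutation p = 0.129), with 0.20 in numbers 1 to 3 and 0.79 in numbers 4 to 11, against 0.74 in all (permutation p = 0.00054, adjusted p = 0.00324, with rho = 0.37, adjusted p = 0.155), so that relation rests on those muscles. Hspb6 with Hspb2 (r = 0.66, permutation p = 0.00047, adjusted p = 0.00324, with rho = 0.56, adjusted p = 0.0313) likewise gave 0.41 without SCR 6 and SCR 7 (permutation p = 0.0910), though 0.56 in numbers 1 to 3 and 0.82 in numbers 4 to 11. After cyclic loess normalization of the values the 3 pairs of Hspb6 no longer passed, with r = 0.46 for Cryab (adjusted p = 0.0807), 0.50 for Hspb7 (adjusted p = 0.0716) and 0.38 for Hspb2 (adjusted p = 0.149).

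The inducible Hsp70 gene joined the group over all mice, with a lower r among SCR than among ANTI-210 muscles. Hspa1a gave r = 0.64 with Cryab (permutation p = 0.00269, adjusted p = 0.00968, with rho = 0.65, permutation p = 0.00258, adjusted p = 0.0232), and also 0.64 without ANTI-210 11 and SCR 6. It was 0.41 in numbers 1 to 3 and 0.56 in numbers 4 to 11. Among ANTI-210 muscles alone the r of Hspa1a was 0.85 with Cryab, 0.91 with Hspb2 and 0.69 with Hspb7. Among SCR muscles alone these were 0.22, 0.26 and 0.27, and the difference between the groups was not tested. The replicate set was not removed from these within-group r. ANTI-210 1 to 3 were low in Hspa1a (7.04 to 7.52) and Cryab (12.21 to 12.82), against 8.08 to 8.94 and 13.06 to 13.38 in SCR 1 to 3. Hspa1a with Hspb2 gave 0.61 (permutation p = 0.0023, adjusted p = 0.0092, with rho = 0.59, adjusted p = 0.0312), or 0.75 without SCR 6 and SCR 7, but -0.19 within numbers 1 to 3 and 0.54 within numbers 4 to 11. Hspa1a with Hspb7 gave 0.53 (permutation p = 0.0143, adjusted p = 0.0428, with rho = 0.53, adjusted p = 0.0679), or 0.51 without 2 mice, 0.30 in numbers 1 to 3 and 0.63 in numbers 4 to 11.

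Hspa1a and Hspa1b gave r = 0.62 (permutation p = 0.0015, adjusted p = 0.00675, with rho = 0.62, permutation p = 0.00256, adjusted p = 0.0232). It was 0.58 without ANTI-210 6 and SCR 8, 0.97 within numbers 1 to 3 and 0.72 within numbers 4 to 11. The relation rests on 1 Hspa1b probe near the floor. The 2 Hspa1b probes followed each other with an r of only 0.11 (permutation p = 0.638, adjusted p = 0.773). That r was -0.94 in numbers 1 to 3 and 0.25 in numbers 4 to 11. Binding of a probe to RNA of the other gene was not tested.

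Hspb1 went the other way. It was highest in SCR 6 (12.89) and SCR 7 (12.88), where Cryab was among its lowest at 12.05 and 12.34. Its r was -0.68 with Hspb2 (permutation p = 0.00095, adjusted p = 0.00489, with rho = -0.56, permutation p = 0.00894, adjusted p = 0.0402), -0.60 without SCR 11 and SCR 6, -0.69 within numbers 1 to 3 and -0.61 within numbers 4 to 11. With Cryab it was -0.54 (permutation p = 0.00753, adjusted p = 0.0246, with rho = -0.40, adjusted p = 0.155), and -0.40 without the same mice (permutation p = 0.0649). The relation with Cryab thus did not pass without those muscles, while its sign was the same within ANTI-210 muscles (-0.53) and within SCR muscles (-0.60). It was -0.08 in numbers 1 to 3 and -0.48 in numbers 4 to 11. Hspb3 and Hspb8 entered no pair past the threshold in the deposited values, although Hspb8 with Hspb7 did after cyclic loess normalization (r = -0.53, adjusted p = 0.0291). Hspb3 gave r = 0.16 with its complex partner Hspb2 (permutation p = 0.494, adjusted p = 0.608, with rho = 0.17, adjusted p = 0.615).

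**Figure D3:**
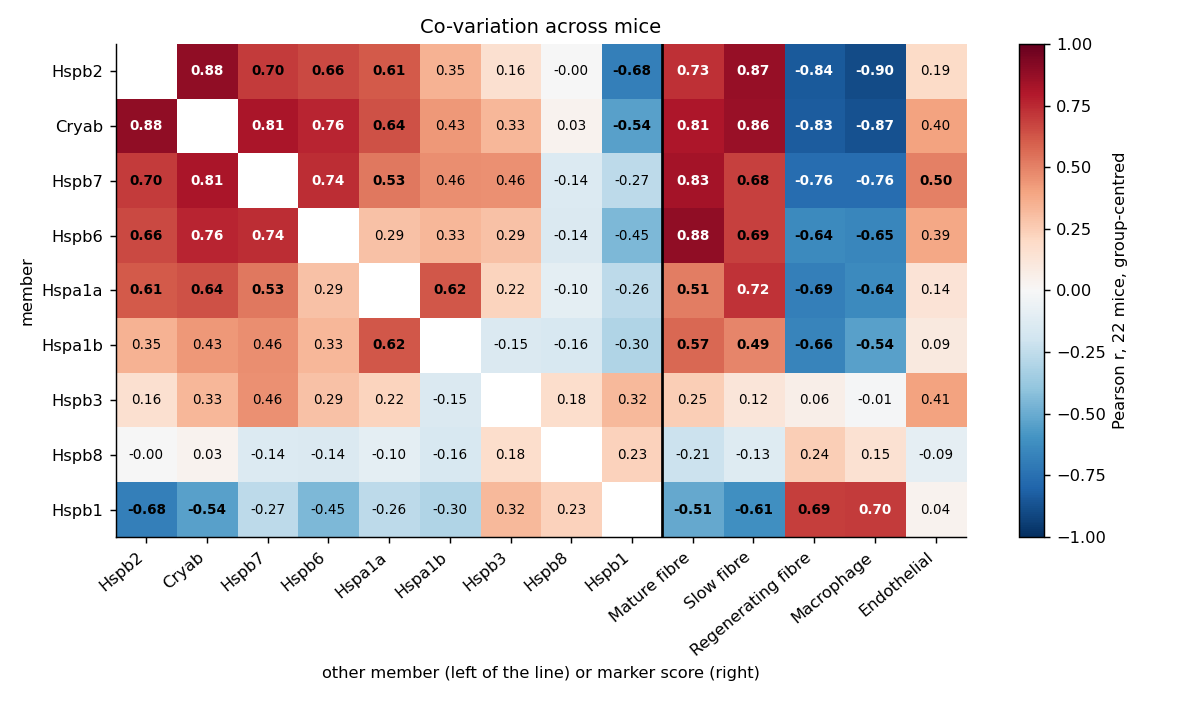
Pearson r of each member (rows) with the other members (columns left of the line) and with 5 cell type marker scores (columns right of the line), over 22 mice with group means removed. Red is positive and blue negative, and bold marks an adjusted p under 0.05 within the family of 36 pairs or of 45 marker relations. Hspb2 and Cryab read 0.88 together, and Hspb1 is negative with both of them.

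The same muscles differed in their cell type markers. For a marker score, each gene of a list was centred on its mean in the 22 mice and the centred values were averaged within a mouse. Scores were made for mature fibres (19 measured genes), slow fibres (9), regenerating fibres (12), macrophages (12) and endothelium (11). In whole muscle, fewer cells of a type and less RNA per cell cannot be told apart. Between treatments, the macrophage score averaged 0.16 in ANTI-210 muscles (range -0.81 to 1.23) and -0.16 in SCR muscles (range -1.46 to 1.36), with 0 of 12 genes past the threshold and Itgam and Msr1 near the floor. The mature fibre score averaged 0.006 in ANTI-210 muscles (range -0.34 to 0.12) and -0.006 in SCR muscles (range -0.37 to 0.13), with 1 of 19 genes higher. Of these 19 genes 7 had a mean of 15 or more, close to the top of the scale, and 3 reached it, so a difference between the groups could be compressed there. The score of the other 12, made after seeing the data, averaged 0.0037 in ANTI-210 muscles (range -0.50 to 0.16) and -0.0037 in SCR muscles (range -0.53 to 0.23). Regenerating fibres had 0 of 12 and slow fibres 0 of 9 genes past the threshold. Endothelial genes had 5 of 11 higher in ANTI-210 muscles. The background was 3.47% of genes (642 of 18524), with 1.45% higher and 2.01% lower.

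In the 6 mice of numbers 1 to 3 the macrophage score was higher in ANTI-210 than in SCR muscles by 1.07, the regenerating score by 0.87 and the endothelial score by 0.29, while the slow fibre score differed by -0.80. The groups overlapped in none of these 4, and the exact permutation p was 0.1 for each, the smallest possible. The mature fibre score differed by -0.10 there (exact permutation p = 0.2). Within numbers 4 to 11 the differences were 0.03 for macrophages, -0.13 for regenerating fibres, 0.35 for slow fibres, 0.05 for mature fibres and 0.09 for endothelium, with overlap in all 5 (exact permutation p of 0.180 or more).

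Of 45 relations between a member and a score, 29 passed after adjustment by r (15 positive and 14 negative) and 25 by rho. The share of all genes that would pass with these scores was not computed, so the count does not set the members apart from other genes. All 29 kept their sign within ANTI-210 and within SCR muscles and within numbers 4 to 11, and 24 did within numbers 1 to 3. Without the 2 mice farthest from the median of the score, 25 kept an unadjusted p under 0.05. The exceptions were Hspb6 with the macrophage, Hspb7 with the slow fibre and the endothelial, and Hspa1b with the slow fibre score. Hspb2 and Cryab had the tightest ones with the macrophage score. For Hspb2 r was -0.90 (permutation p = 1e-05, the smallest possible, adjusted p = 9e-05, with rho = -0.84, permutation p = 1e-05, adjusted p = 0.00045), -0.83 without the 2 mice farthest from the median, -0.56 within numbers 1 to 3 and -0.92 within numbers 4 to 11. For Cryab r was -0.87 (permutation p = 1e-05, adjusted p = 9e-05, with rho = -0.79, permutation p = 5e-05, adjusted p = 0.00075), -0.80 without 2 mice, -0.90 within numbers 1 to 3 and -0.86 within numbers 4 to 11.

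Both also followed the slow fibre score, whose genes include slow myosin and myoglobin. The r was 0.87 for Hspb2 (permutation p = 3e-05, adjusted p = 0.000193, with rho = 0.83, adjusted p = 0.00075) and 0.86 for Cryab (permutation p = 1e-05, adjusted p = 9e-05, with rho = 0.78, adjusted p = 0.000975). Without 2 mice these were 0.83 and 0.78, and within numbers 1 to 3 they were 0.27 for Hspb2 and 0.63 for Cryab. Within numbers 4 to 11 they were 0.88 for Hspb2 and 0.85 for Cryab. Against the regenerating score, whose genes include Myh8, Myl4 and Myog, Hspb2 gave -0.84 and Cryab -0.83 (adjusted p = 9e-05 each, with rho = -0.75 for both, adjusted p = 0.000975 each). Both were -0.75 without 2 mice. In numbers 1 to 3 they were -0.70 for Hspb2 and -0.93 for Cryab, and in numbers 4 to 11 they were -0.86 and -0.84.

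The members were not divided by score. Cryab (r = 0.81, adjusted p = 0.00036, with rho = 0.49, adjusted p = 0.0447) and Hspb2 (r = 0.73, adjusted p = 0.000787, with rho = 0.57, adjusted p = 0.0186) also followed the mature fibre score by permutation. Hspb7 gave -0.76 with both the macrophage and the regenerating score (adjusted p = 0.00035 each). Hspb1 gave -0.51 with the mature fibre score (adjusted p = 0.0291). Hspb7 and Hspb6 followed the mature fibre score too. For Hspb7 r was 0.83 (permutation p = 2e-05, adjusted p = 0.00015, with rho = 0.70, adjusted p = 0.00327), 0.63 without 2 mice, 0.79 within numbers 1 to 3 and 0.89 within numbers 4 to 11. For Hspb6 r was 0.88 (permutation p = 0.00021, adjusted p = 0.000787), rho 0.49 (adjusted p = 0.0337), 0.63 without 2 mice, 0.03 within numbers 1 to 3 and 0.93 within numbers 4 to 11. With the score of 12 genes below 15 these were 0.82 for Hspb7 (adjusted p = 0.000193) and 0.89 for Hspb6 (adjusted p = 0.000695). Over all mice Hspb7 was the single member past the threshold with the endothelial score (r = 0.50, permutation p = 0.0205, adjusted p = 0.0330, with rho = 0.49, adjusted p = 0.0447), but not without 2 mice (r = 0.45, permutation p = 0.0524), with 0.16 in numbers 1 to 3 and 0.66 in numbers 4 to 11. It was lost with cyclic loess (adjusted permutation p = 0.105) and without centring (0.267). In numbers 4 to 11 alone Cryab (r = 0.61, adjusted permutation p = 0.0179) and Hspb6 (r = 0.62, adjusted permutation p = 0.0105) passed too.

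Hspb1 had the opposite sign to Cryab, Hspb2, Hspb6 and Hspb7 with the macrophage and regenerating scores over all mice. Its r was 0.70 with the macrophage score (permutation p = 0.00071, adjusted p = 0.00188, with rho = 0.62, permutation p = 0.0033, adjusted p = 0.0099) and 0.69 with the regenerating score (permutation p = 0.00083, adjusted p = 0.00197, with rho = 0.67, adjusted p = 0.00384). Without 2 mice both were 0.52. Within numbers 1 to 3 they were -0.10 with the macrophage score and 0.28 with the regenerating score, and within numbers 4 to 11 they were 0.69 and 0.66.

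Hspa1a gave -0.64 with the macrophage score (permutation p = 0.00107, adjusted p = 0.00229, with rho = -0.63, adjusted p = 0.00832), -0.78 without 2 mice, -0.26 within numbers 1 to 3 and -0.60 within numbers 4 to 11. Among ANTI-210 muscles alone this r was -0.96 and among SCR muscles -0.30, a difference that was not tested and from which the replicate set was not removed. The 2 SCR muscles with the highest macrophage scores, SCR 6 and SCR 7, held 8.19 and 8.10 of Hspa1a. ANTI-210 11 and ANTI-210 3, with scores of 1.17 and 1.23, held 7.05 and 7.04. The next SCR muscle by score, SCR 8 (0.70), held 7.13, the lowest Hspa1a value of its group. Hspb8 and Hspb3 passed with no score, with r between -0.21 and 0.24 for Hspb8 and between -0.01 and 0.41 for Hspb3 (adjusted p of 0.0976 or more by r and 0.0621 or more by rho). For Hspb8 this depended on the normalization, since after cyclic loess it passed with 4 of the 5 scores, with r = 0.57 for macrophages (adjusted p = 0.0203), 0.61 for regenerating fibres (adjusted p = 0.00859), -0.66 for mature fibres (adjusted p = 0.00231) and -0.54 for slow fibres (adjusted p = 0.0136). The cyclic loess values also ended the relations of Hspb6 with the macrophage, regenerating and slow fibre scores (adjusted p of 0.105 to 0.144).

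**Figure D4:**
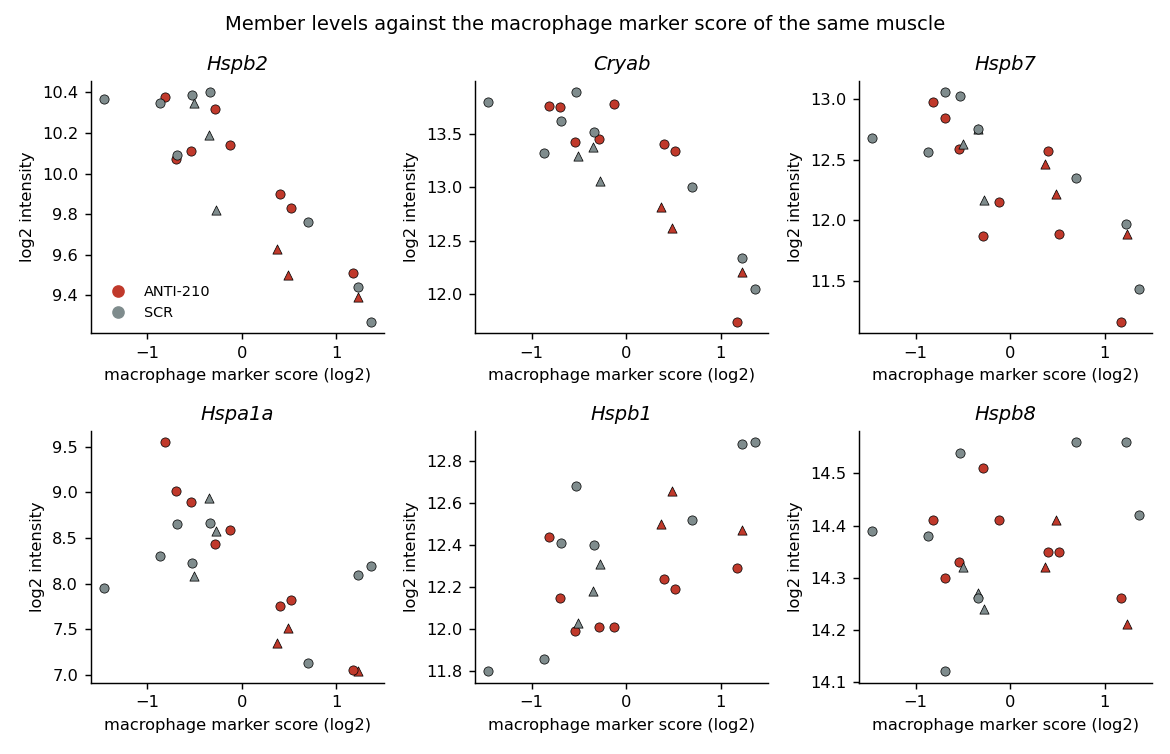
Log2 intensity of 6 members (brightest probe) against the macrophage marker score of the same muscle, ANTI-210 in red and SCR in grey, triangles for numbers 1 to 3 and circles for numbers 4 to 11. Hspb2, Cryab and Hspb7 descend with the score, Hspb1 climbs (r = 0.70), and Hspb8 has r = 0.15 in these deposited values, against 0.57 after cyclic loess normalization.

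Other heat shock and chaperone genes were compared in the same way, chosen after values of these data were seen. These were Bag3, Dnajb1, Hsph1, Hsp90aa1, Hspa8, Hspd1 and Hspe1, and 24 of 63 relations passed by r (13 positive and 11 negative) and 15 by rho. Here too the share over all genes was not computed. Without 2 mice, 13 of the 24 kept an unadjusted p under 0.05. Bag3, the co-chaperone that joins Hsp70 to small heat shock proteins, followed Cryab (r = 0.84, permutation p = 1e-05, adjusted p = 0.00063, with rho = 0.72, permutation p = 0.00016, adjusted p = 0.006615). Without ANTI-210 11 and ANTI-210 3 that r was 0.74, within numbers 1 to 3 it was 0.97 and within numbers 4 to 11 it was 0.83. Bag3 gave 0.77 with Hspb2 (permutation p = 4e-05, adjusted p = 0.00126, with rho = 0.69, adjusted p = 0.0134) and -0.69 with Hspb1 (permutation p = 0.00074, adjusted p = 0.004295, with rho = -0.67, adjusted p = 0.0154). Without the same mice these were 0.73 for Hspb2 and -0.80 for Hspb1. They were 0.65 and 0.07 in numbers 1 to 3, and 0.75 and -0.72 in numbers 4 to 11. With Hspb8, its textbook partner, Bag3 gave only 0.10 (permutation p = 0.675, adjusted p = 0.817, with rho = 0.18, adjusted p = 0.594), with 0.81 in numbers 1 to 3 and 0.01 in numbers 4 to 11.

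Hspa1a moved with Hspd1, the mitochondrial chaperonin Hsp60 (r = 0.74, permutation p = 0.00025, adjusted p = 0.00315, with rho = 0.71, permutation p = 0.00073, adjusted p = 0.0134), and with Hsph1, an Hsp110 exchange factor (r = 0.71, permutation p = 0.00108, adjusted p = 0.00567, with rho = 0.71, adjusted p = 0.0134). Without 2 mice these were 0.64 for Hspd1 and 0.55 for Hsph1. Within numbers 1 to 3 they were -0.29 for Hspd1 and 0.47 for Hsph1, and within numbers 4 to 11 they were 0.78 and 0.76. Dnajb1, the J-domain partner of inducible Hsp70, gave -0.37 with Hspa1a (permutation p = 0.0900, adjusted p = 0.177, with rho = -0.36, adjusted p = 0.203) and -0.66 with Hspb2 (permutation p = 0.00136, adjusted p = 0.00571, with rho = -0.58, adjusted p = 0.0357). With Hspb2 it was -0.51 without ANTI-210 11 and SCR 6, -0.63 in numbers 1 to 3 and -0.90 in numbers 4 to 11. Hsp90aa1 gave -0.71 with Hspb2 (adjusted permutation p = 0.0043) and 0.69 with Hspb1 (0.00567). Without SCR 6 and SCR 7 these were -0.43 (permutation p = 0.0713) and 0.46. Hspa8 gave -0.55 with Cryab (adjusted permutation p = 0.0244) and 0.68 with Hspb1 (0.0043). Without SCR 11 and SCR 6 these were -0.36 (permutation p = 0.175) and 0.47. Within numbers 1 to 3 they were 0.56 and -0.04.

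The genes with the most similar profiles over the 22 mice, searched among 8820 genes with a mean of 6 or more, are given as a description by r alone. For Cryab they were Dbndd2, the muscle ankyrin repeat gene Ankrd2 and Hagh (0.96 each), and for Hspb2 they were P2rx5, Akt1s1 and Dppa5a (0.96 each). Hspb7 was nearest to Xirp2, which encodes an actin-binding protein of muscle (0.89), Hspa1l (0.89) and Asph (0.88). Hspb6 was nearest to the muscle cytochrome oxidase subunit Cox6a2 (0.92), Sel1l3 (0.91) and myoglobin, Mb (0.91). Hspa1a was nearest to Rcan1, a calcineurin regulator (0.89), Lyar (0.88) and Arih1 (0.86). Hspb1 was nearest to Lpcat1 (0.87), Tspan18 (0.86) and Wwtr1, also called TAZ (0.84). Hspb3 was nearest to Cox19 (0.82), Msi2 (0.79) and Mustn1 (0.77), and Hspb8, with the loosest matches, to Leng8 (0.73), Txndc15 (0.67) and Drg2 (0.66).

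The wider chaperone system also differed little between treatments. Of 85 genes in 8 lists, 79 were measured, and 4 passed the unadjusted threshold (5.06%, against 3.47% of all genes), 2 higher and 2 lower in ANTI-210 muscles. None passed after adjustment, and 13 of the 79 were near the floor.

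Among Hsp70 co-chaperones 2 of 20 genes were higher and none lower (against 1.45% of all genes higher and 2.01% lower), with a list median of -0.06, against -0.00364 for all genes. Bag5, which inhibits Hsp70 cycling, read 9.28, 9.42 and 9.65 (lowest, median, highest) in ANTI-210 muscles and 9.14, 9.29 and 9.61 in SCR muscles. It rose by 0.11 (standard error 0.05, unadjusted p = 0.0326, adjusted p = 1.0 with limma). Its second probe, near the floor, differed by 0.03, and the call was kept in 15 of 22 fits that each left out 1 mouse. Bag5 differed by 0.11 within numbers 1 to 3 (exact permutation p = 0.2) and by 0.12 within numbers 4 to 11 (exact permutation p = 0.0932). The J-domain gene Dnaja1 rose by 0.04 (unadjusted p = 0.0447), but its mean of 4.48 lay near the floor and the call was kept in 10 of those 22 fits. Its difference was 0.05 within numbers 1 to 3 (exact permutation p = 0.3) and 0.04 within numbers 4 to 11 (exact permutation p = 0.0775).

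In the HSP90 system 1 of 11 genes was lower, against 2.01% of all genes. Ahsa2, related to the HSP90 activator Aha1, read 7.01, 7.42 and 7.74 in ANTI-210 muscles and 7.31, 7.58 and 7.76 in SCR muscles. It fell by 0.17 (standard error 0.07, unadjusted p = 0.0266, adjusted p = 1.0 with limma), while its dim second probe differed by 0.07. Within numbers 1 to 3 it differed by -0.42, with no overlap of the groups (exact permutation p = 0.1, the smallest possible), but within numbers 4 to 11 by only -0.08 (exact permutation p = 0.340). The call was also lost without ANTI-210 3 (p = 0.0523) and with the mean of both probes (-0.05, p = 0.296).

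Among 9 genes of chaperone-assisted autophagy and its sarcomere clients, 1 was lower, against 2.01% of all genes. Flnc, the filamin C that Hspb7, Hspb8 and Bag3 handle, read 13.28, 13.46 and 13.82 in ANTI-210 muscles and 13.36, 13.68 and 14.17 in SCR muscles. It fell by 0.21 (standard error 0.09, unadjusted p = 0.0264, adjusted p = 1.0 with limma). A second Flnc probe, near the floor, differed by 0.05, and the mean of both differed by -0.08 (p = 0.249). Without SCR 7 the p of the first was 0.0521. Within numbers 1 to 3 the difference was -0.07, with no overlap (exact permutation p = 0.1), and within numbers 4 to 11 it was -0.27 (exact permutation p = 0.0145).

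The remaining lists had no gene past the threshold. These were 12 Hsp70 relatives (smallest p for Hspa14, 0.03 with p = 0.181, and Hspa4, -0.16 with p = 0.207), 3 further small heat shock proteins that all lay near the floor (Odf1 -0.05, Cryaa -0.04), 4 heat shock factors and regulators, 10 chaperonins (Tcp1 0.08, Cct2 0.13) and 10 endoplasmic reticulum stress genes (Sdf2l1 0.15, Trib3 0.11), with p unadjusted from limma. Of the heat shock factors Hsf4 was nearest to the threshold, at 7.15, 7.76 and 8.34 in ANTI-210 muscles and 7.26, 8.22 and 8.62 in SCR muscles. The Hsf4 difference was -0.30 (standard error 0.17, unadjusted p = 0.0817, adjusted p = 1.0 with limma), and that of Hsf2 was -0.10 (unadjusted p = 0.484). In other limma fits Hsf4 did pass, with array weights (-0.40, unadjusted p = 0.0102) and with principal component 1 as a covariate (-0.22, unadjusted p = 0.0102). It also passed with the mature fibre score as a covariate (-0.33, unadjusted p = 0.0125) and in 4 of 22 fits that each left out 1 mouse. Hsf1, the main heat shock factor, had no named probe here, nor did Hsp90ab1, Chordc1, Dnaja4, Dnajb11 and Hspa12a.

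**Figure D5:**
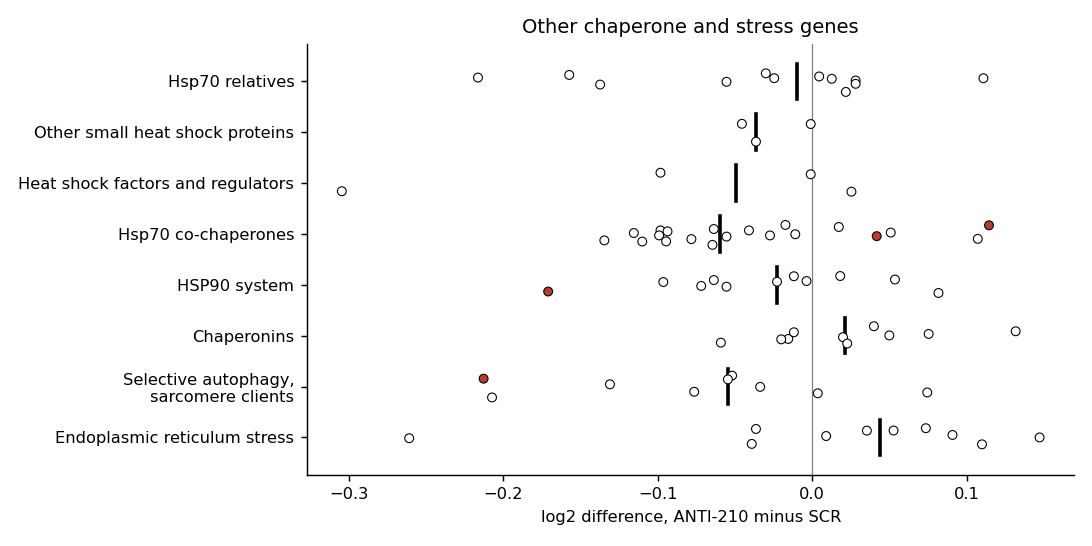
Log2 differences, ANTI-210 minus SCR, of the 79 other chaperone and stress genes by list, with a vertical bar at each list's median. Red points passed an unadjusted p under 0.05, and these are Bag5 and Dnaja1 (higher) and Ahsa2 and Flnc (lower).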

How the data were processed

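The deposited table holds 1 log2 intensity per probe and array for 38563 probes. Per the study's methods, the authors summarised beads in GenomeStudio, quantile normalized them and filtered them with beadarray (the sources used here give no versions or thresholds). The log base is not stated and was taken as log2 from the range of 4.35 to 15.4. Array annotation names 1 gene for 32093 probes, several for 16 and none for 6454. ANTI-210 was compared with SCR over 22 mice with limma 3.58.1 (lmFit and eBayes, R 4.3.3), two-sided, with Benjamini-Hochberg adjustment over all probes, and the probe with the highest mean stood for its gene. Correlations used group-centred values and 100000 permutations within groups (numpy 2.4.6, Python 3.11.15), and exact permutation tests used scipy 1.17.1. All members were named, with list genes past the threshold (otherwise the 2 with the smallest p) and the 3 genes most like each member with a mean of 6 or more. Members and lists were chosen with earlier results of these data known. The fits were tested on simulated data. Alternatives were other normalizations, variance models, weights, covariates, blocks, probe rules and leaving out mice. The sources used here do not say whether replicate numbers mark batches or chips.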

Additional observations from a re-analysis of the deposited data

Results flagged for a closer look

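The ANTI-210 minus SCR difference of 2 members was unlike between the sets of replicate numbers, by a test of the difference itself. For Hspa1a it was lower by 1.466 on the log2 scale in numbers 1 to 3 than in numbers 4 to 11 (value -1.466, unadjusted p = 0.0167, adjusted p = 0.442 with limma). For Hspb1 it was higher by 0.635 (unadjusted p = 0.0251, adjusted p = 0.447 with limma). Such differences were found for 11.0% of all probes, and their cause was not tested.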

How the results depend on the processing

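In 12 alternative settings and 22 fits without 1 mouse, no member gene passed, with one exception, the fit with the mature fibre score as a covariate, in which 1 gene did (Hspb7, -0.28, unadjusted p = 0.0242). The member probes past the threshold were then 2, and 0 with dim probes left out. The count was 1 whichever mouse was left out, and the third Hspa1a probe passed in each of the 10 settings that kept it (-0.18 to -0.16). Replicate numbers did not pair the mice, since deviations of mice with the same number correlated between -0.66 and 0.64, and 2 of 22 mice correlated best with their own number. With the replicate number as a block, 1 member probe and 4 list genes passed, but not the same genes. Bag5 and Flnc were kept, Ahsa2 (p = 0.0604) and Dnaja1 (p = 0.104) were lost and Hspa4 passed (-0.16, p = 0.0202).

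List genes past the threshold were 7 with array weights, 2 with dim probes left out, 2 with trend and robust eBayes, 8 with the mature fibre score, 1 with the mean of all probes, 1 in numbers 4 to 11 alone and 2 to 5 without single mice. Of 12 settings Flnc passed in 9, Ahsa2 and Bag5 in 8 each, and of 11 settings Dnaja1 passed in 7. Of the named list genes without a call above, Hsf4 passed in 3 of 12 settings, Sdf2l1 in 2 and Hspa4 in 1. Pairs of members past the threshold were 7 in numbers 4 to 11 alone, and 9 to 12 in the other settings, where cyclic loess ended 4 pairs (the 3 of Hspb6, and Hspa1a with Hspb7) and added Hspb8 with Hspb7. Of the relations with marker scores it ended 6 and added 4, all of Hspb8.

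Signs that turned were all of differences under the threshold, and the cause was not tested. In numbers 4 to 11 alone these were Cryab (0.14), Hspa1a (0.24), Hspb2 (0.024), the second Hspb8 probe (-0.065), Hsf2 (0.044), Odf1 (0.026) and Tcp1 (-0.02). With principal component 1 in the fit they were Cryab (0.045) and the second Hspb8 probe (-0.0087), and with array weights Hspa1b (-0.0437), Hspb6 (-0.0161) and Hspb8 (0.022). Hspb3 gave 0.000798 with cyclic loess, Hspb6 -0.000429 with the mature fibre score and Hspb8 0.000455 with the mean of its probes. Without single mice the range was -0.20 to 0.0506 for Cryab, -0.0359 to 0.0548 for Hspb6, -0.0479 to 0.0191 for Hspb3, -0.0431 to 0.000909 for Hspb8, -0.015 to 0.063 for its second probe, and -0.00555 to 0.122 and -0.0155 to 0.102 for the Hspa1b probes.

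Dimness limits Hspa1b and the dimmer Hspa1a probes, and the ceiling limits Hspb6.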
